A study of Mus musculus with 80 samples.

Results

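Active H3K4me3 regions without MLL2 are stretches of the mouse genome that carried H3K4me3 and H3K27ac in wild type embryonic stem cells but no peak of the methyltransferase MLL2. They were taken from the 43063 merged H3K4me3 peaks of the first wild type (WT) experiment. A region was a member if it overlapped, by at least 1 bp, an H3K4me3 peak of the second WT experiment and a WT H3K27ac peak, and overlapped no WT peak of MLL2 and none of H3K27me3 in either WT experiment. This left 10473 members, which were 24.3% of all WT regions and 28.7% of the 36536 regions seen in both WT experiments. Of the 16910 regions that were in both experiments and acetylated, 6033 had an MLL2 peak, a further 404 had no MLL2 but H3K27me3, and 61.9% were members. No member lay on the mitochondrial genome.

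The series has 80 samples, and peak lists of 40 were used here. The conditional cells are feeder-free embryonic stem cells from C57Bl/6 blastocysts, genotype Mll2F/F:CreERT2/+, kept in serum and LIF. Knockout (KO) cells received 4-hydroxytamoxifen for 96 h to delete the floxed Mll2 alleles, and WT cells are the same line given the carrier, so both groups hold the floxed alleles and the Cre fusion, and deletion cannot be told apart from the drug. The second line, V6.5, carries catalytic dead (CD) MLL2 in one group and wild type MLL2 in the other, and it was grown on irradiated mouse fibroblast feeders that were removed by pre-plating. Each ChIP-seq target had 1 KO and 1 WT library per experiment. H3K4me3, H3K27me3, Suz12 and Ring1b were done in 2 experiments, and H3K4me3 was made with a laboratory antibody in the first and a commercial one in the second. ATAC-seq had 3 KO and 3 WT libraries. The labels do not say that libraries came from separate cultures, so the spread between ATAC libraries may be technical.

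H3K4me3 is the trimethyl mark of nucleosomes around transcription start sites, and it is deposited by the SET1 and MLL complexes. MLL2 (gene Kmt2b) is one of these enzymes and is known in stem cells for the H3K4me3 of bivalent promoters, which also carry the Polycomb mark H3K27me3. At active promoters the related SET1A and SET1B complexes also place H3K4me3. H3K27ac marks active promoters and enhancers, and RNA polymerase II phosphorylated on serine 5 of its tail repeat (Ser5P) is the form found at and just after initiation, while an antibody to its largest subunit RPB1 detects the enzyme more broadly.

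All lists were peak calls with no read counts, so the depth of a library is unknown, and each value below is the share of regions overlapped by a listed peak. A region without a peak fell under the caller's threshold and need not lack the mark. Lists differed in length: H3K4me3 had 30514 and 28936 peaks in KO cells against 43063 and 39921 in WT cells, Ser5P had 42660 against 30067 and RPB1 41139 against 29048. The MLL2 list shrank to 264 peaks in KO cells, against 11085 in WT cells. Those KO peaks touched 40 members (0.382%), near the 0.337% of the 36536 regions in both WT experiments. By the rule, none of the 40 had a WT MLL2 peak. Confidence intervals for shares are exact binomial ones (Clopper-Pearson, 95%) and cover counting error only. ChIP with 1 library per group allows no test between genotypes, and in bulk cells a mark present in fewer cells cannot be told apart from less of the mark per cell.

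The word active was met in part by the polymerase data, which the rule did not use. In KO cells 69.7% of members had both a Ser5P and an RPB1 peak, against 44.6% in WT cells; over all regions in both WT lists the shares were 47.8% in KO cells and 34.9% in WT cells. Members with neither polymerase peak made up 5.42% in KO cells and 27.6% in WT cells, against 26.8% in KO cells and 39.3% in WT cells over all regions. In WT cells the members are therefore acetylated H3K4me3 regions of which a large minority lay under the polymerase thresholds.

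Members were regions of intermediate width. Their H3K4me3 peaks ran from 388 to 27220 bp with a median of 2039 bp, and the middle of the distribution lay between 1417 and 3072 bp (25th and 75th percentiles). For comparison, 4948 acetylated regions with MLL2 and without H3K27me3 (acetylated MLL2-bound regions) had a median of 3475 bp, and 10478 regions without MLL2, H3K27ac or H3K27me3 (unacetylated regions) had a median of 1164 bp. A further comparison class, 2033 regions without MLL2 but with H3K27me3 in both WT experiments (bivalent regions without MLL2), had a median of 1691 bp. The caller's peak score, which often ties at 3100, was 3100 or more at 23.2% of members, against 93.6% of acetylated MLL2-bound regions and 3.23% of unacetylated regions. WT H3K27ac covered members nearly end to end: the median member was covered over 99.8% of its width, and 49.1% of members lay wholly within an H3K27ac peak. Acetylated MLL2-bound regions were covered over a median of 61.9%, and 7.40% lay wholly within acetylation.

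At the median, members lay nearer to another H3K4me3 region than to an MLL2 peak, with 43063 H3K4me3 and 11085 MLL2 peaks in the WT lists. These distances were not measured for other classes. The gap to the nearest other WT H3K4me3 region had a median of 2778 bp, and 2941 members (28.1%) had a neighbour within 1000 bp. Of the 4411 members with a neighbour within 2000 bp, 57.7% had another member beside them and 11.4% an acetylated MLL2-bound region. The nearest WT MLL2 peak was a median of 26575 bp away. It lay within 1000 bp at 77 members (0.735%), within 5000 bp at 1085 (10.4%), and more than 100000 bp away at 1256 (12%). The rule kept MLL2 peaks off the members themselves, so only the spread beyond the region is a measurement here.

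**Figure D1:**
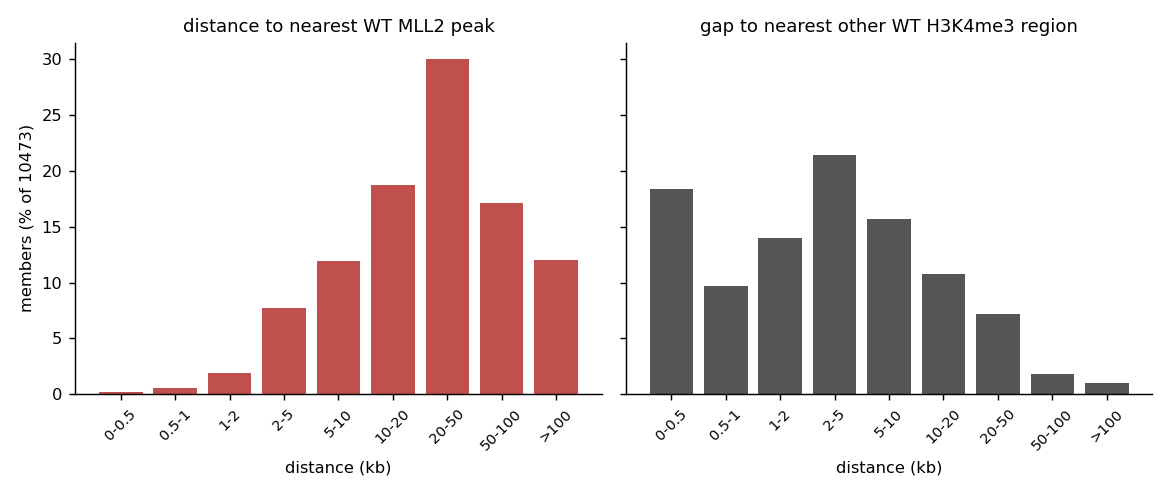
Share of the 10473 members (percent, vertical axis) by distance in kb to the nearest WT MLL2 peak (left, red) and by gap in kb to the nearest other WT H3K4me3 region (right, grey), in bins of unequal width. For MLL2 the bin from 20 to 50 kb holds the most members (30.0%). That bin is wider than all nearer bins, so its height does not mark the most frequent distance. Another H3K4me3 region lies less than 0.5 kb away at 18.4% of members.

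The members on either side of the MLL2 limit were few. The 77 members with an MLL2 peak less than 1000 bp away kept H3K4me3 in KO cells at 90.9 and 89.6% in the 2 experiments and H3K27ac at 81.8%. Only 5 acetylated regions without H3K27me3 fell just outside, with an MLL2 overlap of under 100 bp, and all 5 had H3K4me3 peaks in both KO lists.

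Most members still had H3K4me3 peaks in KO cells. In the first experiment 92.6% (92.0 to 93.0%) had a KO peak, and in the second 89.1% (88.5 to 89.7%), against 100% in WT cells by the rule. The 780 members (7.45%) without a KO peak in the first experiment compare with a background of 30.4% of all regions in both WT lists, and the 1137 (10.9%) of the second experiment with 35.0%. Because the WT lists defined the regions, a lower share in KO cells was built into this comparison. When the WT list was shortened to the length of the KO list, keeping the peaks with the highest scores, the direction turned: 92.6% of members had a peak in KO cells and 83.9% in WT cells in the first experiment, and 89.1% in KO cells and 78.1% in WT cells in the second. Members took up 29.9 and 31.4% of all KO H3K4me3 peaks, against 24.3 and 27.4% of all WT peaks.

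**Figure D2:**
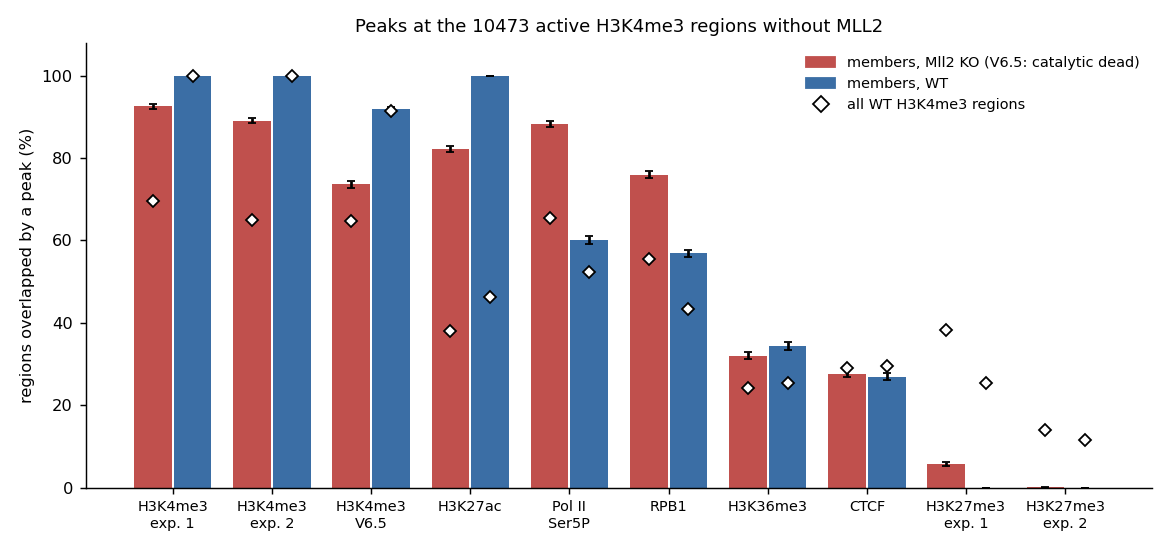
Percentage of the 10473 members overlapped by a peak in mutant cells (red, left bar of each pair; KO, or catalytic dead for V6.5) and in WT cells (blue), with exact 95% binomial intervals for counting error, for 1 library per bar; diamonds give the same percentage over the 36536 regions in both WT H3K4me3 lists. WT values of H3K4me3, H3K27ac and H3K27me3 are fixed by the rule at 100 or 0.0%. H3K4me3 in KO cells stands at 92.6 and 89.1% of members, above 69.6 and 65% of all regions.

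The 2 KO experiments mostly marked the same members. H3K4me3 was listed in both at 9224 members (88.1%), in the first alone at 469, in the second alone at 112, and in neither at 668 (6.38%, background 29.3%). KO peaks also spanned the regions: they covered 92.7% of all member bases in the first experiment and 88.2% in the second, where the second WT list covered 88.7%. In the comparison classes, the share of regions with a KO H3K4me3 peak in the 2 experiments was 99.6 and 99.3% for acetylated MLL2-bound regions, 38.2 and 33.7% for unacetylated regions, and 40.5 and 29.2% for bivalent regions without MLL2. The difference between classes was not tested, since regions of 1 library are not replicates.

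Width separated the members that kept a KO peak from those that did not. Members were put in 5 width bins of nearly equal number. From the narrowest (388 to 1307 bp) to the widest (3405 to 27220 bp), the share with H3K4me3 in the first KO experiment was 76.3, 90.3, 96.7, 99.5 and 100%. In the second KO experiment it was 67.9, 84.7, 94.4, 98.8 and 99.9%. Acetylated MLL2-bound regions in the same width bins had 73.7, 89.2, 99.3, 100 and 99.9% in the first KO experiment and 68.4, 80, 98.9, 99.9 and 99.9% in the second. The 2 acetylated classes thus stood closer in bins of like width than over all widths, with members above in some bins and below in others. The narrowest bin held 38 MLL2-bound regions and the next 65. Unacetylated regions of the same widths had 21.0, 54.0, 82.7, 96.3 and 97.3%. Width is itself a WT H3K4me3 value and goes with the WT score, whose median was 121.7 in the narrowest bin and 3100 in the widest.

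In the V6.5 line fewer members had H3K4me3 peaks in CD than in WT cells, a direction that turned when both lists were cut to the same length. Of all members, 73.6% of members had a peak in CD cells and 91.8% in WT cells, a difference of -18.28 points. Of the 9619 members with a V6.5 WT peak, 2052 (21.3%) had no CD peak, against a background of 29.8%. The CD list held 25891 peaks and the V6.5 WT list 41008, and at equal length the difference was 1.16 points. By width, the CD share ran through 38.5, 60, 79.9, 91.7 and 97.7%, against V6.5 WT shares of 75.4, 90.0, 95.8, 98.6 and 99.5%. Acetylated MLL2-bound regions in the same bins had CD shares of 65.8, 73.8, 97.6, 99.6 and 99.8%. Their V6.5 WT shares were 86.8, 98.5, 99.8, 100 and 100%. Members thus stood lower in each bin in CD cells and in V6.5 WT cells alike. Line, feeders and mutation differ between the 2 systems, and no test was made between them.

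**Figure D3:**
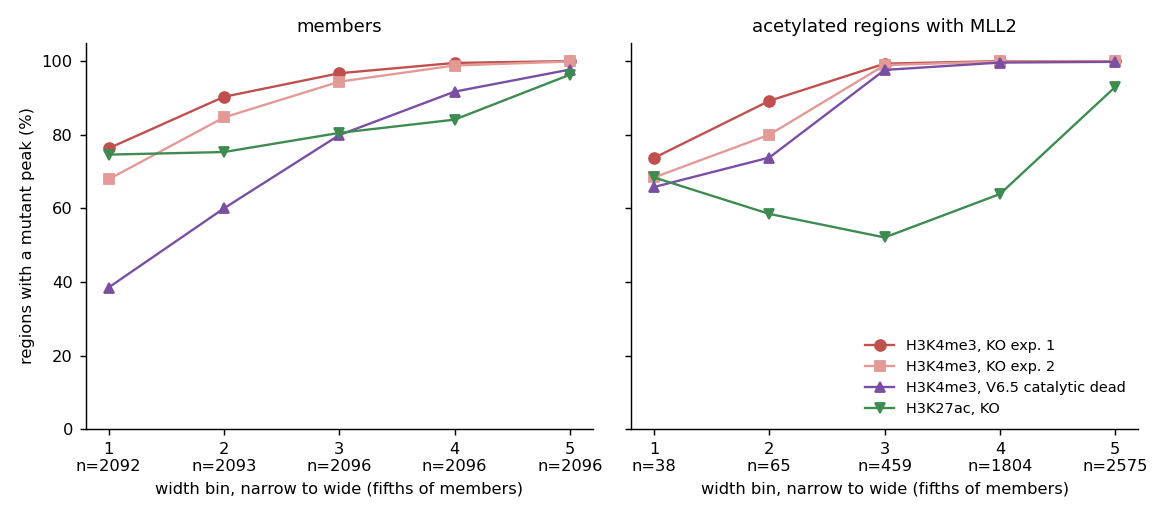
Percentage of regions with a mutant peak (vertical axis) in 5 width bins from narrow to wide, each with nearly the same number of members, for members (left) and for acetylated regions with MLL2 (right); n is the number of regions in each bin, and each line is 1 library. H3K4me3 in KO cells climbs with width in both classes, from 76.3 to 100% of members in the first experiment, and H3K27ac in KO cells lies between 52.1 and 68.4% in the 4 narrower bins of MLL2-bound regions.

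The 668 members without H3K4me3 in either KO list were narrow, weakly marked and more often alone. Their median width was 1167 bp, against 2222 bp at members with peaks in both KO lists, and their median WT H3K27ac score was 122.2, against 567.1. The gap to the nearest H3K4me3 region had a median of 6944 bp, against 2536 bp. Their V6.5 data went the same way: of the 473 with a V6.5 WT peak, 384 (81.2%) had no CD peak, while among the 8684 members with both KO peaks and a V6.5 WT peak 1398 (16.1%) had none. H3K27ac was still listed in KO cells at 49.3% of them, against 85.8% at members with both KO peaks. Ser5P was present in KO cells at 63.8% and in WT cells at 23.8%.

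The 5 widest of these lost regions outside chromosome 18 were named by a rule on width alone. All coordinates are of build mm9, and genes were not assigned to regions. The widest, chr17:23676743-23680715 (3973 bp), had a WT H3K4me3 score of 3100, an ATAC peak in all 6 libraries and Ser5P in both genotypes, but no H3K27ac in KO cells and no RPB1 in either genotype, and CD cells had no H3K4me3 there while V6.5 WT cells did. A KO H3K27me3 peak of the first experiment overlapped it. The region chr13:22018945-22021980 (3036 bp) also scored 3100 and had CTCF in both genotypes and no ATAC peak in any library. At chr6:142457694-142461064 (3371 bp) H3K27ac stayed in KO cells and CD cells kept H3K4me3. H3K27me3 was listed there in the first KO experiment and in both V6.5 genotypes, with Ring1b in both genotypes and Suz12 in KO cells. At chr15:98847561-98850451 (2891 bp) the WT H3K27ac score of 51.4 was near the lowest listed, and CD cells kept H3K4me3. That region had H3K27me3 in the first KO experiment and in V6.5 WT cells, and Ring1b in KO cells. The last, chr19:7208531-7211788 (3258 bp), had H3K27me3 in both KO lists. Of the 5, only the chr13 region had no KO H3K27me3 peak, and the first KO experiment listed H3K27me3 at 11.2% of all 668 lost members. Of the 5, 2 had a WT H3K4me3 score of 3100, which 23.2% of all members reached or passed.

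H3K27ac stayed at most members. In KO cells 82.1% (81.4 to 82.9%) had an H3K27ac peak, against 100% in WT cells by the rule, so 1870 members (17.9%) had none, with a background of 21.3% of all acetylated regions. The KO list held 22944 peaks and the WT list 29297. With equal numbers of peaks the difference moved to -7.60 points from -17.86, keeping its direction. Members took up 33.9% of KO H3K27ac peaks and 33.6% of WT peaks.

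KO acetylation varied more across WT acetylation scores than across widths. Over 5 bins of WT H3K27ac score, low to high, the share of members with a KO H3K27ac peak was 41.1, 75.8, 95.3, 98.9 and 99.6%. H3K4me3 of the second KO experiment ran through 76.3, 85.2, 90.7, 96.2 and 97.3% over the same bins. The scores came from the same WT H3K27ac list that the rule used to choose members. The lowest bin, up to a score of 126.8, began at the floor of that list. The part of the caller's threshold in the low KO H3K27ac share of that bin was not tested. Across width bins, KO H3K27ac was 74.6, 75.3, 80.5, 84.1 and 96.3% at members. In the matched bins of acetylated MLL2-bound regions it was 68.4, 58.5, 52.1, 63.9 and 93.0%, so members stood above them in each bin, by the widest margin in the middle one, which held 459 MLL2-bound regions; the difference was not tested, having 1 library per genotype. Members that had no KO H3K27ac were still mostly marked by H3K4me3 in KO cells, at 79.6 and 72.2% in the 2 experiments, against 95.4 and 92.8% at members that kept it.

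RNA polymerase II peaks were listed at many more members in KO cells than in WT cells. Ser5P overlapped 88.3% (87.6 to 88.9%) of members in KO cells and 60.1% (59.1 to 61.0%) in WT cells, a difference of 28.20 points. RPB1 overlapped 76.0% (75.2 to 76.8%) in KO cells and 56.9% (55.9 to 57.8%) in WT cells, a difference of 19.13 points. All 36536 regions in both WT lists also rose, Ser5P from 52.3% in WT to 65.4% in KO cells and RPB1 from 43.4 to 55.6%. Unacetylated regions rose from 13.9% in WT to 35.4% in KO cells for Ser5P and from 16.9 to 28.2% for RPB1. Bivalent regions without MLL2 fell in Ser5P, from 64.6% in WT to 55.1% in KO cells, and rose in RPB1, from 9.44 to 18.5%. Both KO lists were longer than their WT lists, and when the KO lists were shortened to the length of the WT lists 19.83 points remained for Ser5P and 9.86 points for RPB1. The share of the lists that fell on members did not grow: it was 21.3% in KO cells and 22.6% in WT cells for Ser5P, and 20.3% in KO cells and 20.7% in WT cells for RPB1.

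At members, gains outnumbered losses by far. Of the 4181 members without a WT Ser5P peak, 3340 (79.9%) had one in KO cells, against a background of 41.7%, and 387 of the 6292 with a WT peak (6.15%) had none in KO cells, against 13.1%. Of the 4515 members without WT RPB1, 2186 (48.4%) had a KO peak (background 24.0%), and 182 of 5958 (3.05%) lost theirs (background 3.21%). In acetylated MLL2-bound regions Ser5P stood at 91.5% in KO cells and 92.7% in WT cells, where nearly all regions already had a WT peak. Among the 361 of those regions without a WT Ser5P peak, 258 (71.5%) had one in KO cells. Of the 4587 with a WT peak, 318 (6.93%) had none in KO cells, so Ser5P losses outnumbered gains there. RPB1 went the other way in acetylated MLL2-bound regions, where gains outnumbered losses. Of the 245 without a WT RPB1 peak, 161 (65.7%) had one in KO cells. Of the 4703 with a WT RPB1 peak, 17 (0.361%) had none in KO cells. In the middle width bin, Ser5P was at 81.9% of MLL2-bound regions in KO cells and 84.1% in WT cells. Members of that bin had 90.6% in KO cells and 58.2% in WT cells.

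The members that gained Ser5P lay between those with WT Ser5P and those with none in either genotype. The 3340 gaining members had a median width of 1612 bp and a median H3K4me3 score of 336.7. The 6292 members with WT Ser5P had medians of 2530 bp and 1200.6, and the 841 members with Ser5P in neither genotype 1360 bp and 270.6. By width, Ser5P was 78.1% in KO cells and 33.8% in WT cells in the narrowest and 94.3% in KO cells and 90.3% in WT cells in the widest. RPB1 was 54.1% in KO cells and 29.7% in WT cells in the narrowest bin and 96.6% in KO cells and 90.4% in WT cells in the widest. KO H3K4me3 was present at 89.6 and 84.1% of the gaining members in the 2 experiments. The 841 members without Ser5P had H3K4me3 at 72.2 and 66.5% and H3K27ac at 54.3% in KO cells.

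**Figure D4:**
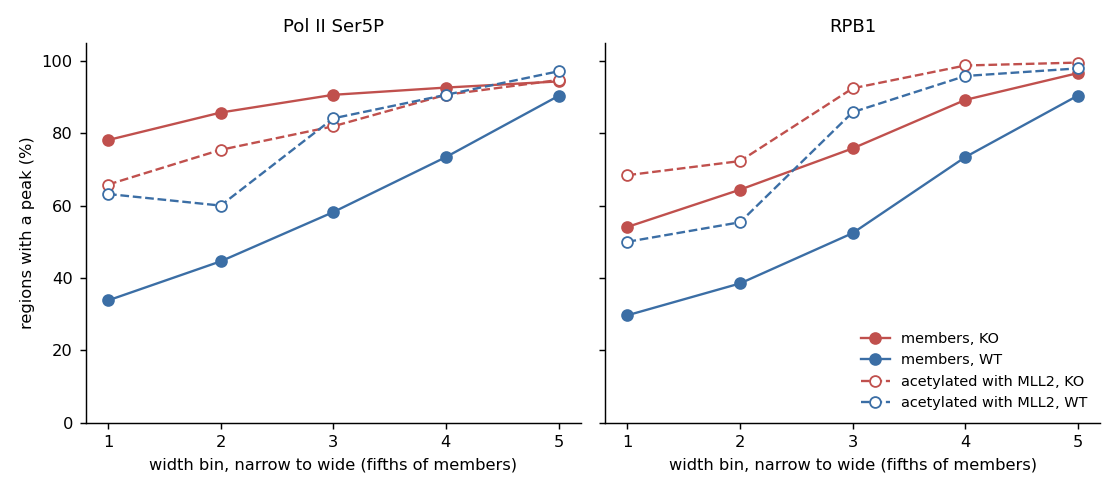
Percentage of regions with a peak of Pol II Ser5P (left) and RPB1 (right) in the 5 width bins, for members (filled circles, solid lines) and acetylated regions with MLL2 (open circles, dashed lines), in KO (red) and WT cells (blue), 1 library per line. The gap between KO and WT members is widest in the narrowest bin for Ser5P (78.1% in KO and 33.8% in WT) and small in the widest (94.3% in KO and 90.3% in WT).

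The KO marks were also counted together. H3K4me3 in both experiments, H3K27ac, Ser5P and RPB1 were all listed at 6305 members (60.2%), and 2970 of these (28.4% of members) also had ATAC peaks in all 3 KO libraries. The rule chose acetylated regions: over all 16910 acetylated regions the shares were 62.6% and 38.9%, and over all 36536 regions 29.8% and 18.3%. At 123 members (1.17%) none of the 5 KO lists had a peak, against 0.792% of acetylated regions and 20.7% of all regions.

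H3K36me3, a mark laid down along transcribed gene bodies, overlapped 32% of members in KO cells and 34.4% in WT cells. Over all regions in both WT H3K4me3 lists it overlapped 24.1% in KO cells and 25.4% in WT cells. Of the 3602 members with a WT peak 468 (13.0%) had none in KO cells, close to the background of 13.2%. Those 3602 members were wider, with a median of 2768 bp against 1825 bp for the rest, and had more RPB1: 90.9% in KO cells and 81.3% in WT cells, where members without H3K36me3 had 68.2% in KO cells and 44.1% in WT cells. CTCF, the insulator and loop anchor protein, overlapped 27.7% of members in KO cells and 26.9% in WT cells. These shares were slightly below those over all regions, 29.0% in KO cells and 29.5% in WT cells. CTCF appeared at 249 of 7651 members without a WT peak (3.25%, background 2.67%) and was missing at 170 of 2822 with one (6.02%, background 8.07%). The 2652 members with CTCF in both genotypes were wider (median 2491 bp) than the 7402 with none (1902 bp). Both lists were nearly the same length in the 2 genotypes, with 50764 CTCF peaks in KO cells and 49208 in WT cells.

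ATAC-seq, which cuts accessible DNA with a transposase, was the assay with replicates. Members overlapped an ATAC peak at 48.5, 51.7 and 55.3% in the 3 KO libraries and at 44.2, 55.3 and 50.6% in the 3 WT libraries. Over all regions in both WT lists the shares were nearly the same, at 43.5, 49.5 and 51.5% in KO libraries and 45.5, 54.7 and 50.8% in WT libraries. At members the groups overlapped, with means of 51.9% ± 3.40 in KO cells and 50% ± 5.59 in WT cells (SD, n = 3 each). The difference of 1.82 points was not larger than the spread (exact permutation test over samples, 2-sided, p = 0.7; Benjamini-Hochberg adjusted over 4 ATAC tests, 0.933; smallest p possible 0.1). Lists held 26601 to 36736 peaks in KO libraries and 31383 to 41237 in WT libraries. With equal numbers of peaks in each library the difference was 5.32 points, at the smallest p the design allows (exact permutation, p = 0.1). Without WT replicate 1 it turned to -1.10 points.

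At an overlap of 1 bp, members had ATAC peaks less often than acetylated MLL2-bound regions and more often than unacetylated ones in each of the 6 libraries. With ATAC required over 50% of a region's width, the difference to MLL2-bound regions turned to 1.68 points and that to unacetylated regions was 1.17 points. Median ATAC peak widths were 841 to 886 bp, and MLL2-bound regions had a median of 3475 bp. A peak of that width cannot cover 50% of such a region, so the order at this setting depends on region width. With 1 bp, the difference to acetylated MLL2-bound regions averaged -39.77 points (range -42.69 to -37.42), and the difference to unacetylated regions 26.96 points (range 22.45 to 31.82). Each had the smallest p that 6 libraries allow in a 2-sided exact sign permutation test (p = 0.031), and neither passed after adjustment over the 4 tests (0.0625). The difference to MLL2-bound regions was -39.45 points in KO and -40.09 points in WT libraries, a change of 0.64 points (exact permutation test, p = 1.0). The difference to unacetylated regions was 30.40 points in KO and 23.52 points in WT libraries, a change of 6.88 points, and that to bivalent regions without MLL2 was 25.67 points in KO and 18.47 points in WT libraries, a change of 7.20 points. In both, every KO library lay above every WT library, which gives the smallest p the design allows (exact permutation test, p = 0.1 each), and neither comparison was planned. The share of the comparison class itself, KO minus WT, changed by -5.06 points for unacetylated regions and -5.38 points for bivalent regions without MLL2. At members it changed by 1.82 points. Within the middle width bin, members averaged 50% in KO and 47.3% in WT libraries and MLL2-bound regions 83.2% in KO and 81.3% in WT libraries. Unacetylated regions of that bin averaged 40.4% in KO and 41.9% in WT libraries, nearer to members than over all widths. In the widest bin members averaged 76.7% in KO and 74.9% in WT libraries. The 74 unacetylated regions there averaged 35.6% in KO and 38.3% in WT libraries.

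**Figure D5:**
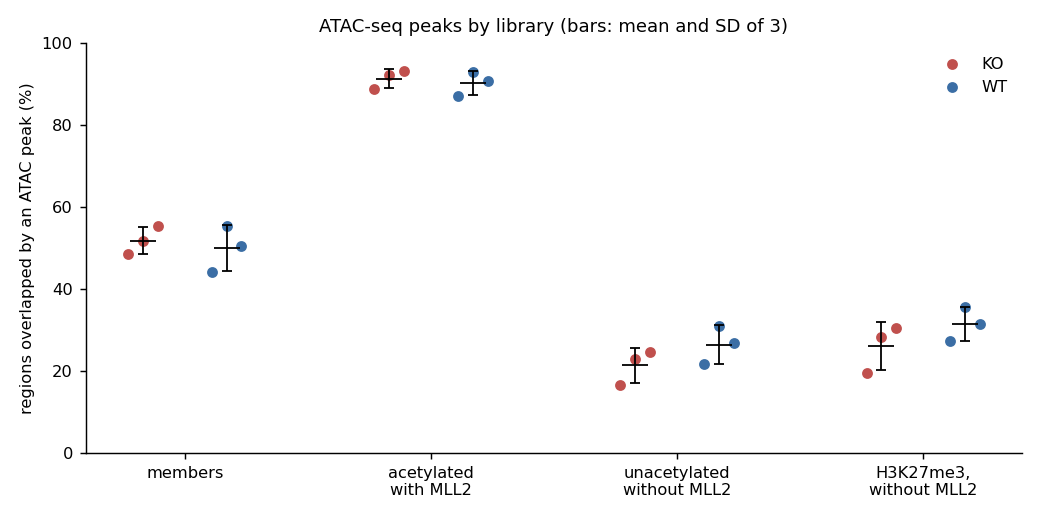
Percentage of regions overlapped by an ATAC peak in each of 3 KO (red) and 3 WT libraries (blue), for members and 3 comparison classes; black bars give the mean and SD of 3 libraries. Members lie between 44.2 and 55.3% in all 6 libraries, with KO and WT overlapping, below acetylated regions with MLL2 and above both other classes. The order to regions with MLL2 turns when ATAC must cover 50% of the width, a setting that depends on region width.

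Accessibility split the members into groups of similar size. No library had an ATAC peak at 3287 members (31.4%), all 6 had one at 3509 (33.5%), and the remaining 3677 differed between libraries. Any pair of libraries of 1 genotype disagreed at 14.2 to 17.2% of members. Members open in all libraries were wider (median 2764 bp) than those open in none (1575 bp), and their WT H3K4me3 score had a median of 2281.1 against 296.9. Even so, 89.7 and 84.9% of the members with no ATAC peak had H3K4me3 in the 2 KO experiments, and 77.7% had KO H3K27ac. Ser5P was at 84.5% of these in KO cells and 39.5% in WT cells.

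In each of the 6 libraries, members with near neighbours had ATAC peaks less often than isolated ones. The 4411 members with another H3K4me3 region within 2000 bp had ATAC peaks at a mean of 40.4% in KO and 38.8% in WT libraries. The 3882 members with the nearest region 2000 to 10000 bp away had 55.1% in KO and 52.7% in WT libraries, and the 2180 members with none within 10000 bp had 69.3% in KO and 68.0% in WT libraries. Median widths in these groups were 2081, 2054 and 1930 bp, and median WT H3K27ac scores 799.8, 374.1 and 304.2; their part in the result was not tested. H3K4me3 in the second KO experiment ran in the opposite order, at 93.1, 88.0 and 83.1%, as did KO H3K27ac at 86.9, 81.0 and 74.6%. Members beside another region were thus those with the most frequent KO histone marks and the least frequent ATAC peaks; this was found after the values were seen and was not tested.

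Polycomb marks were rare at members in both genotypes. H3K27me3, absent in WT cells by the rule, was listed in KO cells at 595 members (5.68%, 5.25 to 6.14%) in the first experiment, against a background of 17.8% of regions without WT H3K27me3. In the second experiment it was listed at 8 members (0.0764%, background 0.493%), and all 8 were among the 595. The first KO list had 31020 peaks against 19820 in WT cells, the second 8266 against 8081. In V6.5 cells, which the rule did not use, H3K27me3 overlapped 2.87% of members in CD cells and 2.71% in WT cells. Over all 36536 regions in both WT H3K4me3 lists it overlapped 23.6% in CD cells and 27% in V6.5 WT cells. Sequential ChIP for H3K4me3 and H3K27me3 in either order touched 141 members (1.35%). The order named with H3K27me3 first touched 0.783% of members, against 18.6% of all regions in both WT lists. The order named with H3K4me3 first touched 0.754% of members, against 15.2% of those regions. Because the rule removed regions with WT H3K27me3, low shares in sequential ChIP were in part built in.

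The 595 members with H3K27me3 in the first KO list kept their active marks less often. H3K4me3 was present at 86.9 and 80.5% in the 2 KO experiments, and H3K27ac at 64.2% in KO cells, where all members together had 82.1%. Their median WT H3K27ac score was 185.9, against 469.8 for all members, while their WT H3K4me3 score of 1188.7 was above the 630.6 of all members. Ser5P was at 84.7% in KO cells and 55.6% in WT cells, near the values of all members.

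Proteins of the Polycomb complexes were also scarce, which the removal of regions with WT H3K27me3 by the rule in part built in. Suz12, a core subunit of the H3K27 methyltransferase PRC2, overlapped 0.239 and 0.344% of members in the 2 KO experiments and 0.0573 and 0.191% in the 2 WT experiments. Ring1b, the ubiquitin ligase of PRC1, overlapped 3.36 and 0.296% in KO cells and 3.88 and 0.0191% in WT cells. At 9900 members (94.5%) none of the 8 Suz12 and Ring1b lists had a peak, a share that was not counted over all regions. In bivalent regions without MLL2, which were chosen for H3K27me3, Suz12 overlapped 68.8 and 75% in KO cells and 69.0 and 84.4% in WT cells. Over all regions in both WT lists it overlapped 16.1 and 17.0% in KO cells and 13.3 and 17.3% in WT cells. Unacetylated regions, also without WT H3K27me3, had KO Suz12 at 0.449 and 0.63% and KO Ring1b at 3.57 and 0.229%. Acetylated MLL2-bound regions, likewise without it, had KO Suz12 at 4.55 and 4.57% and KO Ring1b at 22.5 and 4.53%.

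The 5 widest of the 8 members with H3K27me3 in both KO lists differed in their other marks. The widest, chr1:71691338-71701584 (10247 bp), kept H3K4me3, H3K27ac, H3K36me3, Ser5P and RPB1 in KO cells, had ATAC peaks in all 6 libraries and a Ring1b peak in both genotypes in the first experiment. The region chr10:80400175-80404286 (4112 bp) kept H3K4me3 and H3K27ac, had an RPB1 peak in KO and not in WT cells, and carried H3K27me3 in V6.5 cells of both genotypes. At chr4:140202298-140205573 (3276 bp), 336888 bp from the nearest MLL2 peak, KO cells had H3K4me3 but no H3K27ac, Suz12 and Ring1b peaks were listed, and H3K27me3 was again present in both V6.5 genotypes. The region chr5:115893782-115896260 (2479 bp) kept its active marks. Of the 5, only chr19:7208531-7211788, described above among the lost regions, had neither H3K4me3 nor H3K27ac in KO cells, and it too carried H3K27me3 in V6.5 cells of both genotypes.

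The 5 widest members kept H3K4me3 and H3K27ac in KO cells. They were chr19:23213779-23240998 (27220 bp), chr2:162875340-162901440 (26101 bp), chr4:130218183-130242296 (24114 bp), chr15:25680109-25702296 (22188 bp) and chr11:97515979-97536591 (20613 bp). All 5 had scores of 3100 for WT H3K4me3 and for WT H3K27ac, ATAC peaks in all 6 libraries, and H3K4me3, H3K27ac and RPB1 in KO cells. None had a peak of H3K27me3, Suz12 or Ring1b. They differed in Ser5P, which was listed in KO and not in WT cells at the third and in WT and not in KO cells at the fifth, and in H3K36me3, which was listed at the fourth in WT cells alone.

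The 5 members with the highest WT H3K27ac scores ranged more in size. They were chr8:125079547-125084923 (5377 bp), chr11:75433284-75436526 (3243 bp), chr6:7637896-7645218 (7323 bp), chr5:136398748-136412378 (13631 bp) and chr2:162917239-162918166 (928 bp), with scores between 3217.0 and 3233.1. All 5 kept H3K27ac in KO cells, and 4 kept H3K4me3 in both KO experiments. The exception, chr2:162917239-162918166, had a WT H3K4me3 score of 63.3, no ATAC peak in any library, and H3K4me3 in the first KO experiment alone. At chr5:136398748-136412378 Ser5P was listed in WT and not in KO cells, and no RPB1 peak was listed in either genotype.

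Members were spread over all chromosomes. Their share of the WT regions in both experiments ran from 23.3% on chromosome 12 to 34.4% on chromosome 17. H3K4me3 in the first KO experiment ran from 88.6% of members on chromosome 19 to 95.1% on chromosome 7, and KO H3K27ac from 77.0% on chromosome 13 to 85.1% on chromosome 7. The X chromosome held 300 members, at which ATAC peaks were more frequent (68.7, 70.3 and 72.3% in KO libraries, against 66.0, 74.0 and 68.7% in WT libraries) than at the 10173 autosomal members (47.9, 51.1 and 54.8% in KO libraries, against 43.5, 54.8 and 50% in WT libraries). V6.5 WT H3K4me3 was listed at 86.0% of members on X and 92.0% of autosomal members, and gaps to the next region were longer on X, with a median of 4622 bp against 2748 bp.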

How the data were processed

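Peak lists of ChIP-seq, sequential ChIP and ATAC-seq were used from 40 of 80 samples; the other 40, with the FPKM tables of RNA-seq and PRO-seq, were not used here. Reads were aligned with Bowtie (version not given in the sources used here) to mm9, per the submitters' processing notes, and peaks carry MACS names in the deposited files, 1 list per library. Each deposited score is the caller's own value per peak, at least 50 in every peak list with many ties at 3100, and was used only to rank peaks within a list. Sequential ChIP lists hold windows with a deposited score. The labels' protocols give Drosophila chromatin as a spike-in for the second H3K4me3 experiment; whether the lists use it is not given there.

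Overlaps of at least 1 bp were computed with Python 3.11.15, numpy 2.4.6 and pandas 2.3.3, and the overlap and test code was tested on simulated data. Peaks of the first WT list were merged where they touched. Genotypes were compared over ATAC libraries by exact 2-sided permutation, and classes within libraries by exact sign permutation. Both tests were written in Python and checked against scipy 1.17.1, which also gave the binomial intervals. Width and score bins, 5 each, hold nearly equal numbers of members; named regions are the 5 widest members, the 5 with the highest WT H3K27ac scores, the 5 widest without H3K4me3 in either KO list and the 5 widest with H3K27me3 in both KO lists, outside chromosome 18. Members, classes and lists were chosen with earlier results of these data known. ATAC replicate numbers did not pair the libraries (correlations of same-numbered deviations 0.051, -0.01 and -0.001). No mm9 annotation or genome was used, so genes, sequences and the planned RNA values at members were not analysed here.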

Additional observations from a re-analysis of the deposited data

Results flagged for a closer look

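Ring1b at the members moved in opposite directions in the 2 experiments. In the first, 3.36% of members had a Ring1b peak in KO cells and 3.88% in WT cells, a difference of -0.52 points. In the second, 0.296% had one in KO cells and 0.0191% in WT cells, a difference of 0.28 points. Each experiment had 1 library per genotype, so the difference between them was not tested. The lists held 8841 peaks in KO and 10118 in WT cells in the first experiment, and 4640 in KO and 2242 in WT cells in the second. All 36536 regions in both WT lists differed in the same 2 directions, with 24.5% in KO and 27.3% in WT cells in the first experiment and 13.0% in KO and 5.97% in WT cells in the second.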

How the results depend on the processing

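All differences are in points of percent of members, KO minus WT unless stated. With equal numbers of peaks per pair of lists, H3K4me3 turned to 8.65 (first experiment), 11.00 (second) and 1.16 (CD minus WT), and H3K27ac moved to -7.60, H3K27me3 of the first experiment to 3.86, Ser5P to 19.83 and RPB1 to 9.86. With the top 50% of each list by score, H3K4me3 turned to 1.31 and 4.15, CD minus WT moved to -26.01, H3K27ac to -10.16, H3K27me3 to 2.83, Ser5P to 36.10, and the ATAC class difference to MLL2-bound regions, KO minus WT, turned to -0.89. With an overlap of 50% of the width, H3K4me3 moved to -8.14 and -10.13, CD minus WT to -19.97, H3K27ac to -14.92, H3K27me3 to 2.00 and Ser5P to 36.62. At this setting members minus unacetylated regions in ATAC fell to 1.17 (exact sign permutation, p = 0.40625), and members minus MLL2-bound regions turned to 1.68. Both ATAC values depend on region width, since median ATAC peak widths were 841 to 886 bp. Without MLL2 or H3K27me3 within 1000 bp (10234 members) H3K27me3 was 4.91, and with peaks under 1000 bp apart joined, an alternative chosen after seeing the data (8929 members), it was 6.44. The causes were not tested.

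Leaving out 1 ATAC library gave -1.10 to 4.48 for KO minus WT (-1.10 without WT replicate 1), 25.99 to 27.86 for members minus unacetylated regions, -40.23 to -39.18 for members minus MLL2-bound regions, and -0.66 to 1.97 for the class difference KO minus WT (-0.66 without WT replicate 1, -0.23 without KO replicate 3); 5 libraries cannot go below p = 0.0625 in the exact sign permutation. With the replicate block the ATAC difference was 1.82 (exact permutation, p = 0.5) and the class difference 0.64 (p = 1.0), so the pairing changed no call. The other 59 values kept their direction and side of the threshold, or moved by less than the counting interval, among them all 12 with regions taken from the second experiment (10939 members). The lists give no depth. The planned RNA and PRO-seq comparison of genes at members, with its pseudocount, filter, block and leave-out alternatives, was not run.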
